A study of Mus musculus with 16 samples.

Results

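The genes described here are 9 transporter genes whose products are known to move platinum drugs, copper, or drug conjugates across liver cell membranes: Slc31a1, Slc31a2, Slc22a3, Slc47a1, Abcc2, Abcg2, Abcc4, Atp7b and Atp7a. They were chosen by symbol, with earlier results of these data known, and all 9 were found among the 40840 gene symbols of the count table. All 9 passed the filter on low counts that left 14484 genes for testing. The data are poly(A)-selected RNA sequencing of whole liver, with 16 libraries in 4 groups of 4. Male C57BL/6J mice aged 12 to 16 weeks, wild type (WT) or with the label Cry1-/- Cry2-/- (CryDKO), received the platinum drug oxaliplatin at 12 mg/kg into the peritoneum at circadian time 8 (CT8) or 16 (CT16). The groups were WT at CT8, WT at CT16, CryDKO at CT8 and CryDKO at CT16, so every group had the drug and no untreated group was analysed here. All animals were kept in constant darkness from 3 days before dosing, after a cycle of 12 h of light and 12 h of dark. The labels speak of dosing on 3 consecutive days, whereas the design text also names a single dose. When livers were collected is not stated in these sources, so an effect of dosing time cannot be told apart from the clock phase of collection. The knockout is a whole-body one, and the labels do not say whether replicates came from separate animals, so p-values measure only a spread that may be technical.

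Oxaliplatin enters cells through organic cation transporters and, like other platinum drugs, is thought to share the copper route. In hepatocytes, platinum that has entered can be bound by copper chaperones and metallothioneins, joined to glutathione, and exported either across the canalicular membrane into bile or across the basolateral membrane back to blood. Cryptochromes are repressors of the circadian clock, which act on the activator pair CLOCK and BMAL1 at E-box sequences, and several hepatic drug transporters are known to follow a daily rhythm.

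The upstream sequences of the members were searched for the E-box CACGTG, because that is the sequence at which cryptochromes act. RefSeq start sites in the build GRCm38.p6 gave entries for 8 of the 9 members, with 11 windows of the 250 bases before a start; Slc47a1 had no entry. The letters CACGTG, which read the same on both strands, lay in 2 of the 11 windows, beside 6.02% of all 32851 windows of that length. The 2 windows belong to 1 of the 2 starts of Abcc4 and to Atp7a, and they are printed here with CACGTG in capitals, from 5′ to 3′ on the strand of the gene.
Abcc4, chr14:118706220-118706469, minus strand: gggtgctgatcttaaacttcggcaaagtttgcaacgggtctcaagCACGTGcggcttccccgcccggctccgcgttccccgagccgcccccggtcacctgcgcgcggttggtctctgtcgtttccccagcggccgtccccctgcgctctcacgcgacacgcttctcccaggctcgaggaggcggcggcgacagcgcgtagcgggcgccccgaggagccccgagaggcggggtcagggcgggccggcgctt
Atp7a, chrX:106026974-106027223, plus strand: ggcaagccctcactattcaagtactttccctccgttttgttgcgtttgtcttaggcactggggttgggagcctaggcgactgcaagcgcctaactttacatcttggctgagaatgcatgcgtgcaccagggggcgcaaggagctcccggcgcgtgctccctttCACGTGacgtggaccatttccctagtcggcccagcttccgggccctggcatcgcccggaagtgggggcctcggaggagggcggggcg
The first base of the E-box lay 205 bases before that start of Abcc4 and 87 bases before the start of Atp7a. The D-box letters TTATGTAA and TTACGTAA were found in 0 of the 11 windows on either strand (0.819% and 0.113% of all windows). The letters TGACNNNGC, the core of the antioxidant element read by the factor NRF2, lay in 4 of the 11 windows, of Abcc2, Slc31a2 and both starts of Abcc4 (10.2% of all windows, both strands). The letters TGCNCNC, a loose form of the metal response element, lay in 8 of 11 windows and in 44.4% of all. Some TGACNNNGC and TGCNCNC matches share a window, and none of these matches was tested for binding.

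The libraries held 18083916 to 29934138 counted reads. Scaling factors of the trimmed mean of M values (TMM) ran from 0.812 to 1.24, with the 4 WT CT8 libraries at 1.13 to 1.24. The WT CT16 library 8 stood apart from its group, at 1.20 beside 0.921 to 0.955 in libraries 5 to 7; library numbers are those of the columns and are not replicate numbers. Every pair of libraries within a group differed by more than counting noise. Cry2 was lower in the 8 libraries labelled CryDKO (23.1 to 33.3 CPM, a count divided by the scaled library size) than in the 8 of WT (39.9 to 58.9 CPM), and Cry1 was higher in them (20.5 to 29.0 against 5.14 to 15.9 CPM). A whole-gene count does not show the deleted part, so the counts did not check the knockout and CryDKO stands for the label. Hepatocyte markers (6 of 6 detected) summed to 51416 to 64279 CPM in WT at CT8, to 56172 to 96128 CPM in WT at CT16, to 93837 to 131392 CPM in CryDKO at CT8 and to 94535 to 151564 CPM in CryDKO at CT16. Most of each sum was Alb, at 42908 CPM on average in WT and 85747 CPM in CryDKO. By genotype with the times averaged Alb, Apoa1, Ttr and Cps1 rose, Cyp2e1 fell (log2 change -0.44 ± 0.16), and Serpina1c did not pass (-0.24 ± 0.20), by edgeR. In bulk liver, fewer cells of a type and less RNA per cell cannot be told apart.

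Levels of different genes were compared only as CPM per kilobase of exon, with lengths from the GENCODE M21 annotation. By the median of the 16 libraries the order was Abcc2 (52.9 CPM per kb), Slc47a1 (47.0), Slc31a1 (38.8), Abcg2 (8.19), Atp7b (4.99), Slc31a2 (3.46), Slc22a3 (0.810), Abcc4 (0.681) and Atp7a (0.578). The ranges over libraries of Abcc2 (35.5 to 70.2), Slc47a1 (30.1 to 65.2) and Slc31a1 (27.4 to 63.9) overlapped. Those of Slc22a3 (0.110 to 1.32), Abcc4 (0.250 to 2.29) and Atp7a (0.469 to 0.723) overlapped as well. The liver transcripts were thus led by a canalicular conjugate pump, a canalicular cation exporter and the copper importer, and the copper pump known from the liver, Atp7b, stood above its relative Atp7a in every library (4.06 to 7.27 against 0.469 to 0.723 CPM per kb).

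**Figure D1:**
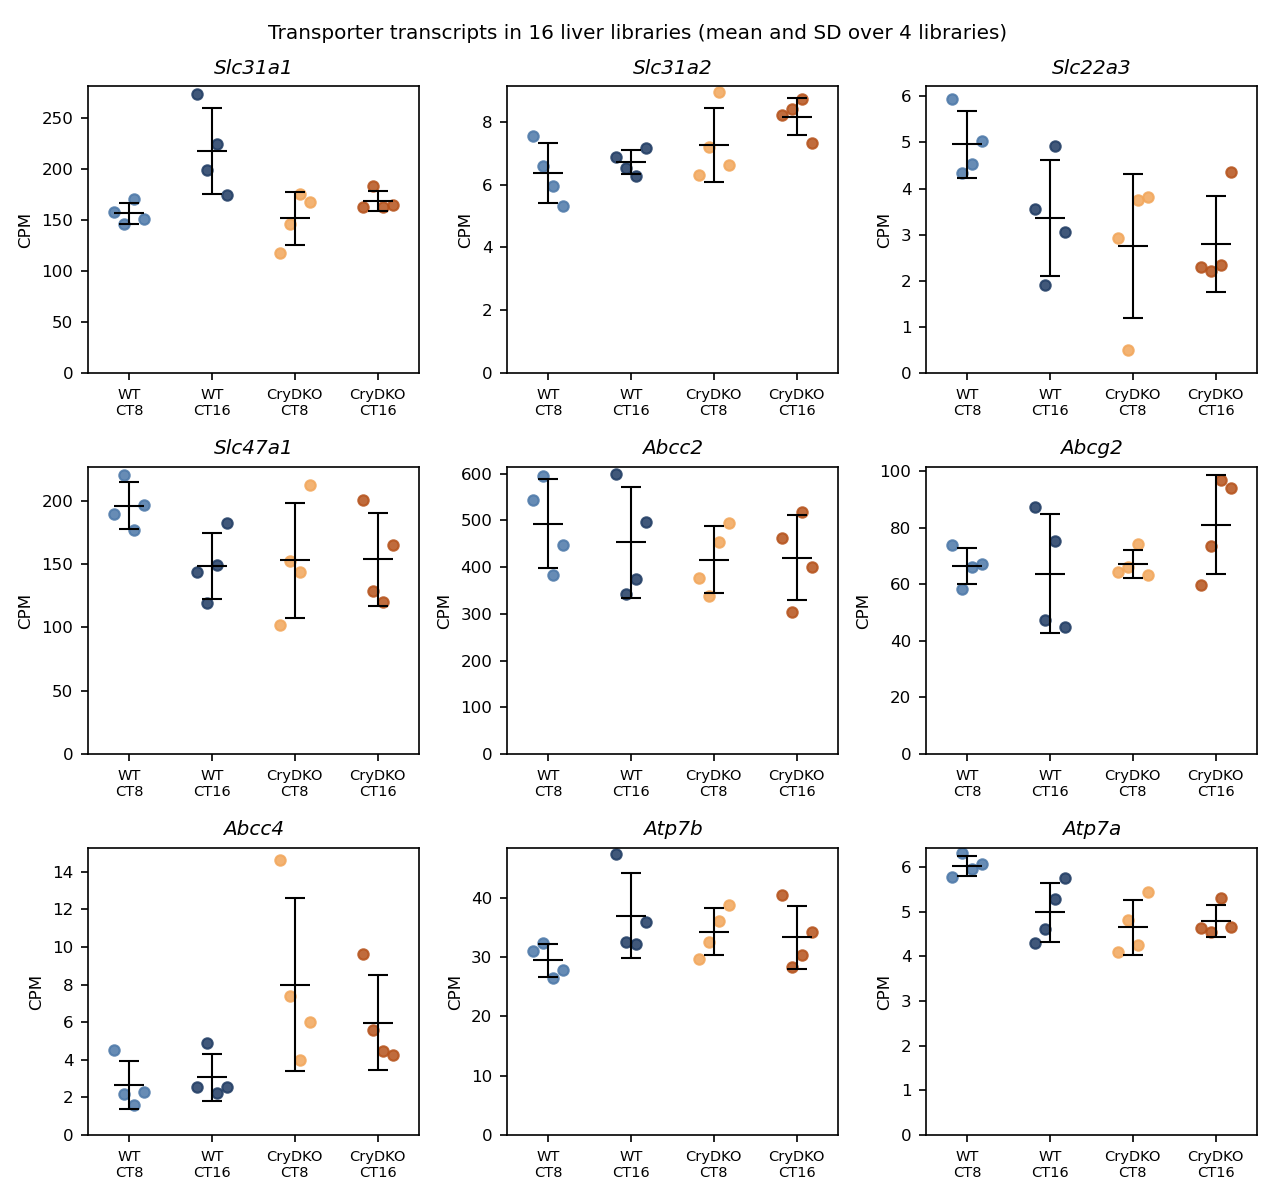
Level of each transporter gene in CPM (vertical axes, from 0, a separate scale for each gene) in the 4 groups. Points are libraries, and the line and bar are the mean and SD of 4 libraries. The highest Abcc4 value, 14.6 CPM, is that of library 9 in CryDKO at CT8, and all 4 Slc31a1 values of WT at CT16 lie above those of WT at CT8.

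Among the 9 genes, Abcc4 was the member that differed by genotype. Abcc4 encodes the basolateral pump MRP4, which exports conjugates and cyclic nucleotides to blood, is scarce in healthy liver and is known to increase in cholestasis. At CT8 the WT libraries had 4.52, 2.20, 1.59 and 2.29 CPM and the CryDKO libraries had 14.6, 7.41, 3.98 and 6.00 CPM. At CT16 the WT libraries had 2.56, 4.89, 2.24 and 2.55 CPM and the CryDKO libraries 9.64, 5.57, 4.45 and 4.25 CPM. At each time 3 of the 4 WT libraries lay below all CryDKO libraries, and 1 WT library, number 1 at CT8 and number 6 at CT16, reached into the CryDKO range. These levels rest on 38 to 136 reads in WT and 72 to 335 reads in CryDKO.

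Abcc4 rose from 2.65 ± 1.28 CPM in WT to 8.00 ± 4.62 CPM in CryDKO at CT8 (SD, n = 4), which is 3.02-fold and a log2 change of 1.59 ± 0.41 (SE). The adjusted p was 0.00603 in edgeR (quasi-likelihood F-test, Benjamini-Hochberg over all genes). At CT16 the means were 3.06 ± 1.23 and 5.98 ± 2.51 CPM, a log2 change of 0.96 ± 0.41, which did not pass (adjusted p = 0.108 by edgeR). With the dosing times averaged, Abcc4 was 2.43-fold higher in CryDKO, a log2 change of 1.28 ± 0.29 with adjusted p = 0.00178 by edgeR. The genotype difference was not shown to depend on the time, since the interaction was -0.63 ± 0.57 on the log2 scale (95% interval -1.88 to 0.61, adjusted p = 0.654 by edgeR). At CT8 the call was kept in 25 of 25 alternative settings, with log2 changes from 1.16 without CryDKO library 9 to 2.01 without WT library 1. At CT16 the gene was called in 1 of 25, without WT library 6 (log2 change 1.29, adjusted p = 0.0480 by edgeR), and without CryDKO library 11 the log2 change was 0.64 (adjusted p = 0.301).

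Of the 9 members, 1 was called higher and 0 lower in CryDKO at CT8, beside 39% of all tested genes called in either direction (18.7% higher and 20.3% lower). The median log2 change of the 9 members was -0.05, beside -0.02 over all genes. With the times averaged the count was again 1 higher and 0 lower, beside 47.1% of all tested genes (22.9% higher and 24.2% lower). At CT16, edgeR called 0 of 9, beside 18.2% of all tested genes, and 2 members (Abcc4 and Slc31a1) had an unadjusted p under 0.05, beside 32.8%. The other tools (DESeq2, limma voom, and limma trend applied to the authors' normalized values) also called 0 at CT16.

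**Figure D2:**
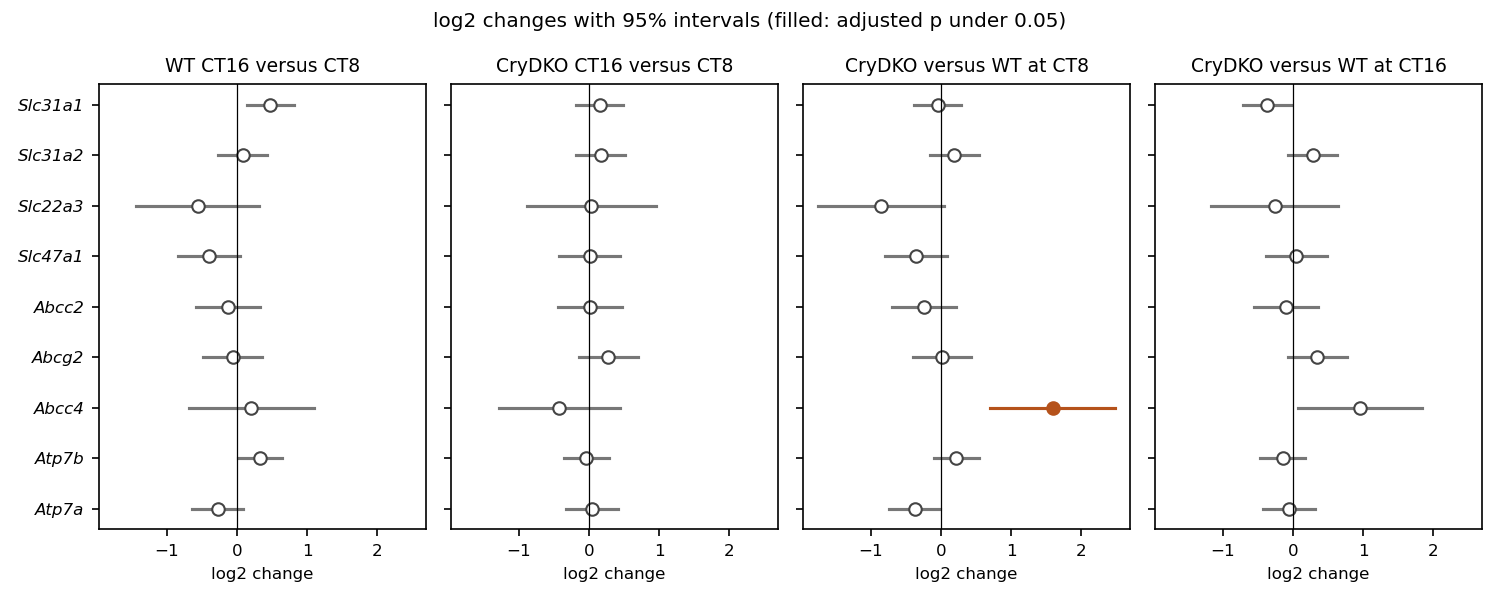
Difference in log2 units (horizontal axes) for each gene in the comparisons of dosing times and genotypes, with 95% intervals from the standard errors. The filled point is the member with adjusted p under 0.05, Abcc4 by genotype at CT8, at 1.59.

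Markers of other liver cells were read in the genotype contrast averaged over the times, in which 47.1% of all tested genes were called. Of 5 tested cholangiocyte markers Krt7 and Krt19 rose and Sox9 fell, by edgeR. The 6 markers of that list, none of which was at 0 in all libraries, summed to 25.8 to 91.9 CPM in WT at CT8, 46.5 to 76.8 CPM in WT at CT16, 50.5 to 147 CPM in CryDKO at CT8 and 47.5 to 147 CPM in CryDKO at CT16. In library 9, which had the highest Abcc4 level, the tested cholangiocyte markers summed to 50.4 CPM, the lowest of the CryDKO libraries at CT8. Most of each such sum was Spp1, at 49.8 CPM on average in WT and 81.5 CPM in CryDKO. Library 9 had 36.6 CPM of Spp1, the lowest of its group, but 7.06 CPM of Krt19, the highest of the 16 libraries. Library 11, second highest for Abcc4 at 9.64 CPM, had the highest cholangiocyte sum, 146.2 CPM, beside 146.1 CPM in library 16. The sinusoidal endothelium markers in library 9 summed to 76.7 CPM, the second highest of the 16 libraries. Of 6 sinusoidal endothelium markers, none at 0 in all libraries, Stab2 rose, and the list summed to 50.2 to 67.2 CPM in WT at CT8, 24.8 to 65.2 CPM in WT at CT16, 43.3 to 78.9 CPM in CryDKO at CT8 and 48.4 to 64.2 CPM in CryDKO at CT16. Of 6 macrophage markers Csf1r and C1qa rose, and of 6 stellate cell markers Des, Pdgfrb and Col1a1 rose. The macrophage list, with none at 0 in all libraries, summed to 18.8 to 71.2 CPM in WT and 39.5 to 112 CPM in CryDKO, and the stellate list to 59.8 to 147 CPM and 37.2 to 217 CPM. The highest stellate sum, 217 CPM, was also that of library 9, in which most of it was Dcn at 158 CPM. The part of these cells in the Abcc4 result was not tested.

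Among 10244 other genes whose average log2 CPM reached 1, those whose pattern over the 16 libraries was most like that of Abcc4 were Bcam, Slc1a4 and Vwf. The measure was the mean absolute difference in log2 CPM after each gene was centred on its own mean, and it was 0.33 for each of the 3 genes, beside a mean absolute deviation of 0.66 for Abcc4 itself. Bcam encodes a laminin-binding adhesion protein, Slc1a4 a neutral amino acid transporter and Vwf the von Willebrand factor of endothelium. The 16 points share libraries, groups and scaling, so this is a description.

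Among the uptake genes, Slc31a1 came closest to a difference by dosing time. Slc31a1 encodes the high-affinity copper importer CTR1, which also carries platinum drugs. In WT its level was 158, 146, 170 and 151 CPM at CT8 and 274, 199, 224 and 174 CPM at CT16, so all 4 libraries at CT16 lay above all 4 at CT8. In CryDKO it was 117, 146, 175 and 167 CPM at CT8 and 163, 183, 163 and 165 CPM at CT16, and the values overlapped. The WT difference was 1.39-fold, a log2 change of 0.48 ± 0.15 (95% interval 0.14 to 0.81), with adjusted p = 0.0730 by edgeR. In CryDKO the log2 change between times was 0.15 ± 0.15 (adjusted p = 0.874 by edgeR). The difference between these contrasts was itself -0.32 ± 0.22 (95% interval -0.80 to 0.15, adjusted p = 0.530 by edgeR), so they were not shown to differ.

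The Slc31a1 value in WT turned on single libraries. Without WT CT16 library 8, whose level of 174 CPM was the nearest to the CT8 group, the log2 change was 0.61 with adjusted p = 0.0102 by edgeR, and without WT CT16 library 5 it was 0.35 with adjusted p = 0.230. The DESeq2 Wald test called it at adjusted p = 0.0240 with a log2 change of 0.49. The number of all tested genes called between times in WT rose without library 8 and with DESeq2, and fell without library 5. The changes in adjusted p are thus not particular to Slc31a1. Between genotypes Slc31a1 stood at 157 ± 10.4 and 151 ± 25.8 CPM at CT8 and at 218 ± 42.4 and 168 ± 9.89 CPM at CT16 (SD, n = 4), in WT and CryDKO respectively. The CT16 difference was -0.37 ± 0.15 on the log2 scale, with adjusted p = 0.0995 by edgeR; it was -0.47 without WT CT16 library 8 (adjusted p = 0.0458) and -0.24 without WT CT16 library 5 (adjusted p = 0.295).

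**Figure D3:**
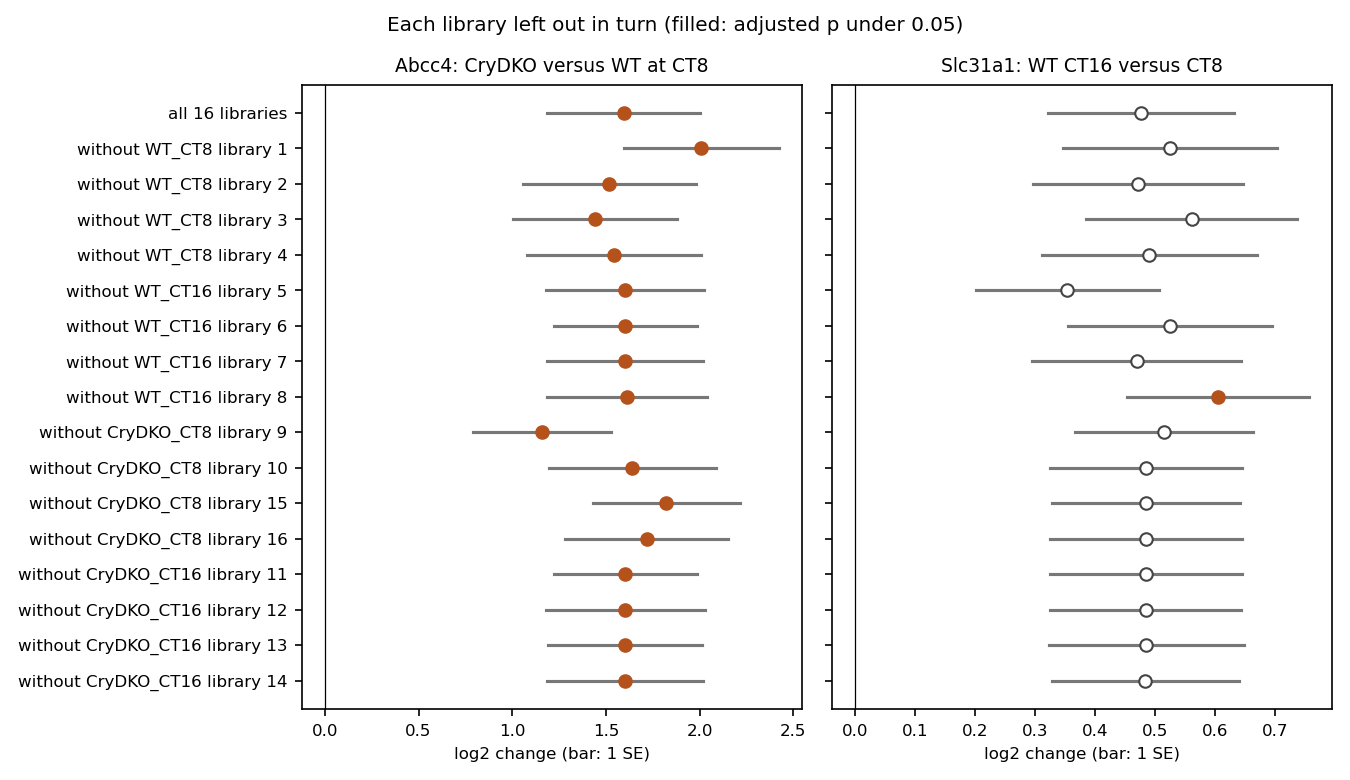
log2 change (horizontal axes, bars of 1 SE) of Abcc4 by genotype at CT8 and of Slc31a1 by dosing time in WT, with all 16 libraries and with each library left out in turn. Filled points have adjusted p under 0.05. Abcc4 stays called throughout, from 1.16 to 2.01, and Slc31a1 is called only without WT CT16 library 8.

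Slc31a2, which lies beside Slc31a1 on chromosome 4, encodes CTR2, a relative in intracellular vesicles that is known to affect copper and platinum retention. At CT8 it stood at 7.57, 6.59, 5.96 and 5.33 CPM in WT and at 6.32, 7.19, 8.96 and 6.64 CPM in CryDKO. At CT16 it stood at 6.89, 6.55, 6.28 and 7.18 CPM in WT and at 8.23, 8.40, 8.74 and 7.32 CPM in CryDKO. All 4 CryDKO libraries lay above all 4 WT libraries at CT16, as in 9.65% of all tested genes, while the CT8 values overlapped. The log2 change by genotype was 0.28 ± 0.16 at CT16 (adjusted p = 0.228 by edgeR) and 0.24 ± 0.11 with the times averaged (adjusted p = 0.0909 by edgeR), and neither passed. Scaling by library size alone turned the averaged value to -0.02, in a setting that moved the median of all genes to -0.26.

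Slc22a3 encodes the organic cation transporter OCT3, a low-abundance uptake carrier in mouse liver. At CT8 its level was 5.95, 4.33, 4.53 and 5.03 CPM in WT and 2.92, 0.494, 3.76 and 3.82 CPM in CryDKO. At CT16 it was 3.55, 1.91, 4.92 and 3.07 CPM in WT and 2.29, 2.21, 2.34 and 4.35 CPM in CryDKO. The 4 CryDKO libraries lay below the 4 WT libraries at CT8, where 20.5% of all tested genes did the same, and the groups overlapped at CT16. The log2 change at CT8 was -0.86 ± 0.41 (95% interval -1.76 to 0.04) with adjusted p = 0.106 by edgeR, and limma voom called it (-1.23, adjusted p = 0.0324). Without CryDKO library 10, which had 11 reads, the value was -0.50. In the GENCODE M21 annotation 420 exonic bases of Slc22a3 (9.31% of its exons) overlap Plg, the plasminogen gene of hepatocytes, on the other strand. The strand setting was not given, so its counts are uncertain.

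Of the canalicular exporters, none passed in any of the 7 comparisons. Slc47a1 encodes MATE1, which moves organic cations into bile in exchange for protons. Its 4 WT libraries at CT8 were at 177 to 221 CPM, beside 120 to 182 CPM in WT at CT16, 102 to 213 CPM in CryDKO at CT8 and 120 to 201 CPM in CryDKO at CT16. Its largest log2 change between 2 groups was -0.40 ± 0.20 between times in WT (95% interval -0.84 to 0.04, adjusted p = 0.208 by edgeR). By genotype at CT8 it was -0.36 ± 0.20 (adjusted p = 0.161 by edgeR), and it ran from -0.17 without CryDKO library 9 (adjusted p = 0.513) to -0.55 without CryDKO library 16 (adjusted p = 0.0343), the lowest and highest of that group.

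Abcc2 encodes MRP2, the canalicular pump for glutathione conjugates, and was the most abundant of the 9 per length. It ranged over 383 to 595 CPM in WT at CT8, 342 to 599 CPM in WT at CT16, 337 to 494 CPM in CryDKO at CT8 and 303 to 517 CPM in CryDKO at CT16. All groups overlapped. Its log2 change by genotype was -0.24 ± 0.21 at CT8 (95% interval -0.70 to 0.21) and -0.11 ± 0.21 at CT16 (-0.56 to 0.35), and between times -0.12 ± 0.21 in WT and 0.02 ± 0.21 in CryDKO.

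Abcg2 encodes the breast cancer resistance protein BCRP, which exports sulfates and many drugs into bile. At CT8 its 4 libraries ran from 58.3 to 74.0 CPM in WT and from 63.3 to 74.2 CPM in CryDKO. At CT16 they ran from 44.8 to 87.4 CPM in WT and from 59.7 to 96.8 CPM in CryDKO, so the groups overlapped at both times. The genotype difference was 0.01 ± 0.19 at CT8 and 0.35 ± 0.19 at CT16 on the log2 scale (adjusted p = 0.216 by edgeR at CT16).

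The copper-transporting ATPases are ATP7B, which loads copper into ceruloplasmin and bile in hepatocytes, and ATP7A, which serves copper export in most other tissues; each can also bind and sequester platinum. Atp7b stood at 29.4 ± 2.76 CPM in WT at CT8, 37.0 ± 7.11 CPM in WT at CT16, 34.3 ± 3.98 CPM in CryDKO at CT8 and 33.3 ± 5.36 CPM in CryDKO at CT16 (SD, n = 4). Its largest log2 change between 2 groups was 0.33 ± 0.15, between times in WT (95% interval 0.01 to 0.65), with adjusted p = 0.161 by edgeR. The highest value, 47.3 CPM, belonged to WT CT16 library 5, and without it the log2 change was 0.19 (adjusted p = 0.468 by edgeR). That library also had the highest Slc31a1, Abcc2 and Abcg2 levels of its group, and the lowest Atp7a level.

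Atp7a, which passed in none of the 7 comparisons by edgeR over all tested genes, had its highest mean in WT at CT8. It had 5.77, 6.31, 5.96 and 6.08 CPM there, 4.29, 4.60, 5.29 and 5.75 CPM in WT at CT16, 4.10, 4.81, 4.26 and 5.45 CPM in CryDKO at CT8, and 4.64, 4.56, 5.31 and 4.66 CPM in CryDKO at CT16. The 4 WT libraries at CT8 lay above every library of the other groups, by a narrow margin (5.77 against 5.75 CPM in WT CT16 library 8). Of all tested genes, 20.5% were lower without overlap in CryDKO than in WT at CT8. Between times in WT, 7.12% were lower without overlap at CT16. The share of genes that did both, or that stood apart from all the other groups, was not counted. The log2 change by genotype at CT8 was -0.37 ± 0.17 (95% interval -0.74 to -0.01), which did not pass over all genes (adjusted p = 0.0826 by edgeR). With genes of a mean of at least 50 reads alone it was -0.44 with adjusted p = 0.0413. The log2 change between times in WT was -0.27 ± 0.17 (adjusted p = 0.294 by edgeR).

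Between dosing times, edgeR called 0 of the 9 members in WT, beside 2.53% of all tested genes. An unadjusted p under 0.05 was found for 2 (Slc31a1 and Atp7b), beside 26.4%, and DESeq2 called 1, Slc31a1, while both limma fits called 0. In CryDKO edgeR called 0 of 9, beside 0% of all tested genes, with 0 members at an unadjusted p under 0.05 (6.48% of all) and 0 called by the other tools. Their log2 changes between times ran from -0.56 (Slc22a3) to 0.48 (Slc31a1) in WT and from -0.43 (Abcc4) to 0.28 (Abcg2) in CryDKO. With the genotypes averaged edgeR called 0 of 9, beside 0% of all tested genes, with 1 member, Slc31a1, at an unadjusted p under 0.05 (20% of all) and 0 called by the other tools. The interaction of genotype and time was called for 0 of 9 by edgeR, beside 0.0414% of all tested genes, with 0 at an unadjusted p under 0.05 (13.3% of all) and 0 by the other tools. In the WT comparison all 4 CT16 libraries lay above all CT8 libraries for 1 member and below them for 1, beside 5.52% and 7.12% of all tested genes.

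Genes that work with these transporters were read in the genotype difference averaged over both times, where 47.1% of all tested genes were called. Of 18 other tested drug carriers 2 rose and 3 fell. Slc22a4, the carnitine and ergothioneine carrier OCTN1, fell (log2 change -1.16 ± 0.16), as did the organic anion importer Slco1b2 (-0.71 ± 0.18) and the nucleotide exporter Abcc5 (-0.74 ± 0.20). Lrrc8a, the obligate subunit of a volume-regulated anion channel that admits platinum drugs, rose (0.50 ± 0.10).

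Of 16 tested genes of intracellular copper handling 7 rose and 1 fell in the same contrast. Ccs, the chaperone that hands copper to superoxide dismutase, rose (0.61 ± 0.13), as did Ccdc22 of the complex that returns copper pumps from endosomes (0.42 ± 0.10) and the mitochondrial copper and phosphate carrier Slc25a3 (0.34 ± 0.10). Commd1, a partner of ATP7B, fell (-0.35 ± 0.10). The other risers, named after their values were seen, were the metallothioneins Mt1 and Mt2, the metalloreductase Steap4 and Sod1. Of 5 tested canalicular scaffold genes 3 rose and 1 fell. Ezr (0.90 ± 0.20), Slc9a3r1 (0.50 ± 0.12) and Pdzk1 (0.42 ± 0.12) rose, and Rdx, whose product radixin anchors MRP2 at the canaliculus, fell (-0.33 ± 0.11).

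Of 11 factors named as regulators of transporter genes 1 rose and 2 fell. Nfe2l2, which encodes NRF2, an activator of Abcc4 and other detoxification genes, fell (log2 change -1.09 ± 0.12). Its level was 131 to 148 CPM in WT at CT8, 78.7 to 105 CPM in WT at CT16, 46.3 to 73.8 CPM in CryDKO at CT8 and 37.3 to 65.3 CPM in CryDKO at CT16. The genotypes did not overlap, in a contrast in which 47.1% of all tested genes were called. The share of all genes without overlap between the genotypes is not given here. Hnf4a, a master factor of hepatocytes, rose (0.77 ± 0.12), and the D-box factor Tef fell (-0.39 ± 0.11). Another D-box factor, Dbp, rose between times in WT (1.01 ± 0.18, adjusted p = 0.0201 by edgeR), a call lost without WT CT8 library 4, WT CT16 library 5 or WT CT16 library 6 (adjusted p up to 0.103). Abcc4, whose level was higher in CryDKO, and Nfe2l2, whose level was lower, thus moved in opposite directions. Whether these changes are related was not tested.

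**Figure D4:**
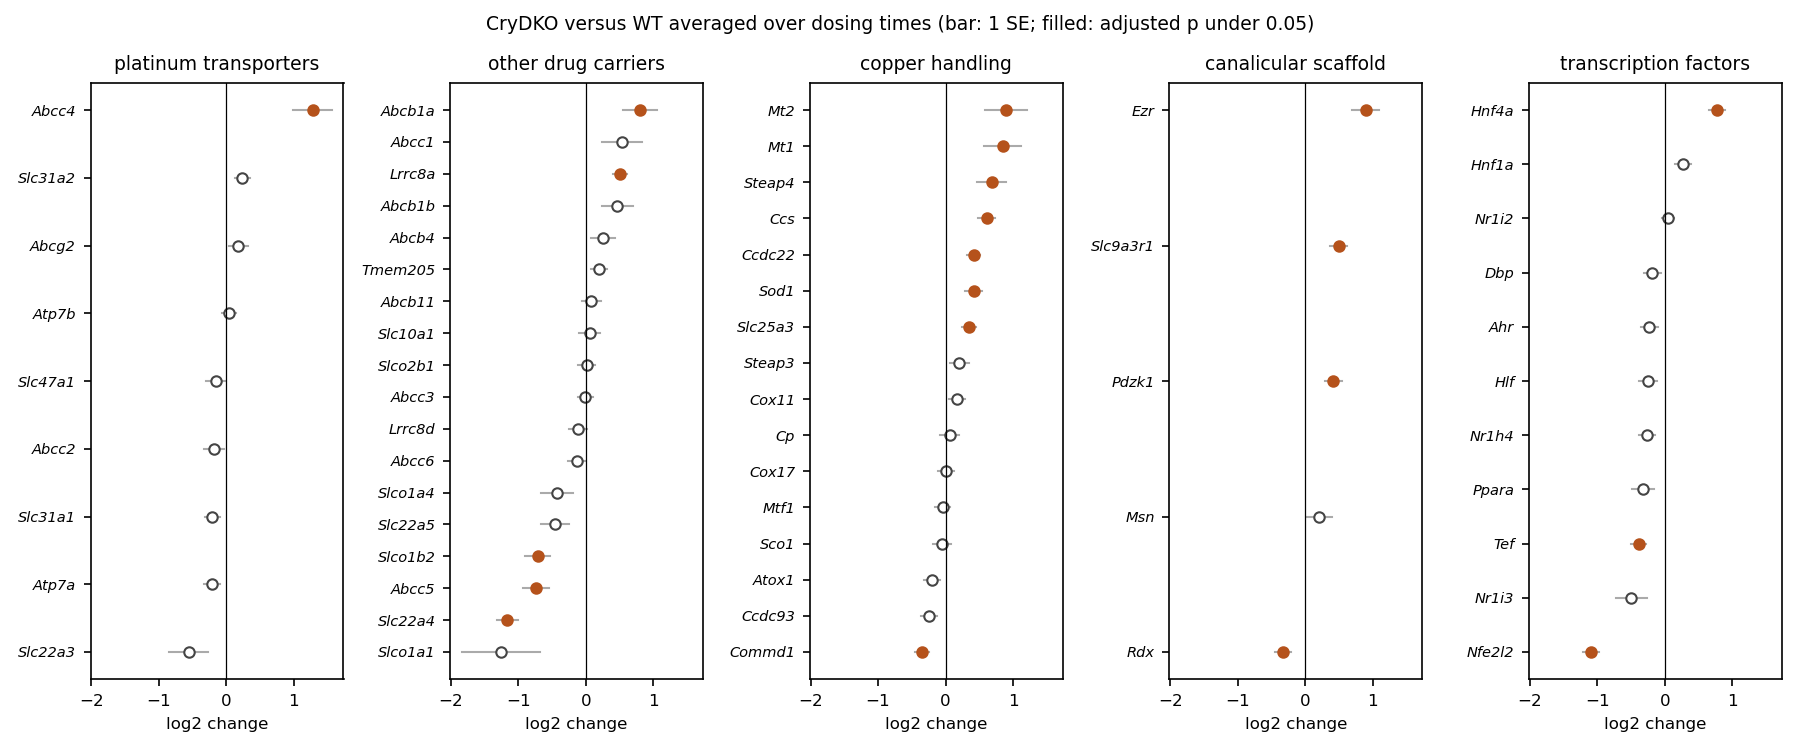
Genotype difference averaged over dosing times, in log2 units (horizontal axes, bars of 1 SE), for the 9 platinum transporters and the 4 lists of related genes. Filled points have adjusted p under 0.05. Abcc4, at 1.28, is the filled member, and Nfe2l2, at -1.09, lies on the other side of 0.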

How the data were processed

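Reads of poly(A)-selected liver RNA were counted by the authors: the submitters' processing notes name FastQC, Trimmomatic 0.35, STAR 2.5.3, HTSeq 1.99.2, DESeq2 and the build GRCm39, while the annotation and strand setting are not given in the sources used here. Whole, unnormalized counts make up the authors' count table. The authors' normalized table is a signal: its values equal the counts over a size factor per library, for 19592 genes with at least 10 reads, and the numbering of 4 CryDKO_CT8 columns is swapped within their group. Groups came from the column names.

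The count model was edgeR 4.0.16 under R 4.3.3: filterByExpr, TMM, and a robust quasi-likelihood fit to all 16 libraries with 12 residual degrees of freedom before moderation. There were 7 contrasts, two-sided, with Benjamini-Hochberg adjustment over the 14484 genes tested and a threshold of 0.05. CPM use TMM-scaled library sizes. Errors of log2 changes are the change divided by the square root of F, and 95% intervals use 12 degrees of freedom. Alternatives were DESeq2 1.42.0, limma 3.58.1 (voom, and trend on log2 of the deposited values plus 1), other scalings, other filters, no robust option, only the compared groups, and each library left out. The procedure was also run on counts simulated from the fitted model for CryDKO versus WT at CT8. Because those counts follow the model's own spread and scaling, that run cannot check either.

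All members are given. From each list of related genes the 4 with the lowest adjusted p were named, and 1 gene of the carrier list is not reported here; of Nherf1 and Slc9a3r1, symbols of 1 gene, Slc9a3r1 is in the table. The members and lists were chosen with earlier results of these data known. Exon lengths, overlaps and upstream sequences come from GENCODE M21 and RefSeq tables of GRCm38, matched by symbol. Figures used Python 3.11.15.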

Additional observations from a re-analysis of the deposited data

Results flagged for a closer look

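In 36 sets of 4 libraries (9 genes in 4 groups), 4 had a highest library far from the other 3 by Dixon's test (gaps of 0.86 to 0.939 of the range); chance gives about 1 in 20. In WT at CT16, Abcc4 stood at 4.89 CPM in library 6 beside 2.24 to 2.56 CPM in the others. In CryDKO at CT16, Slc22a3 stood at 4.35 CPM in library 14 (others 2.21 to 2.34 CPM), Atp7a at 5.31 CPM in library 13 (4.56 to 4.66 CPM) and Slc31a1 at 183 CPM in library 12 (163 to 165 CPM). The 3 CryDKO values belong to 3 different libraries.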

How the results depend on the processing

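No paired analysis was possible because the columns carry running numbers and not the replicate numbers of the labels. Of the 63 log2 changes of members (9 genes, 7 comparisons), 25 alternatives, or 24 for the interaction and the averages, gave 1548 values: 1520 kept direction and side of the threshold or differed in sign only within 1 SE of 0 (53 values), 21 newly passed and 7 changed sign. Scaling by library size alone moved the median of all genes to -0.36 by genotype at CT8, -0.16 at CT16, -0.26 averaged, and -0.29 between times in WT. Against that shift it called 6 of 9 members by genotype at CT8, 1 at CT16 and 6 averaged, and turned the sign of Slc31a2 (-0.17 at CT8, -0.018 by genotype averaged, -0.021 by time averaged), Atp7b (-0.13 by genotype at CT8, -0.012 by time averaged) and Abcg2 (-0.059 by genotype averaged); it also moved 11 of 36 mean levels by over 1 SD. Between times in CryDKO, Abcc4 ran from -0.75 without CryDKO_CT16 library 11 to 0.038 without CryDKO_CT8 library 9 (-0.43 with all). The number of members called by genotype at CT8 was 2 with limma voom (Slc22a3 added) and 2 with a mean of at least 50 reads (Atp7a added), and averaged 2 with a mean of at least 50 reads (Slc31a1 added). It was 1 by time in WT with DESeq2. With each library left out it ran from 0 to 1 by time in WT, 1 to 2 by genotype at CT8, 0 to 1 at CT16, 1 to 2 averaged, and 0 to 1 by time averaged; the added calls were Slc31a1 without WT_CT16 library 8 (by time and by genotype at CT16), Slc47a1 without CryDKO_CT8 library 16, Abcc4 without WT_CT16 library 6 and Slc31a2 without WT_CT8 library 1. Shares of all genes called in these settings are not given here, beyond the counts that follow. The member counts therefore cannot be read against them. Over all genes, the number called in WT CT16 versus CT8 was 367, with 1546 by DESeq2, 3580 without WT_CT16 library 8 and 0 without WT_CT8 library 4 or WT_CT16 library 5. Averaged calls of Ccdc22, Slc25a3 and Pdzk1 were lost with library size alone, and that of Rdx in 6 of 24 alternatives. Except for the shift under library size, the cause of these changes was not tested. Depth limits Slc22a3 (11 to 162 reads a library) and Abcc4 (38 to 335).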
